A study of Homo sapiens with 6 samples.

Results

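The histone genes read by RNA sequencing of doxorubicin-resistant breast cancer cells were examined with and without cyperotundone (CYT), a compound of sedge. They were taken as the protein-coding rows of the count table whose symbols start with HIST1H to HIST4H, H1F, H2AF, H2BF or H3F. This gave 91 of 58302 rows: 71 HIST genes, which encode the replication-dependent histones, and 20 variant histone genes. H2BFS stood on 2 rows, so the 91 rows carried 90 symbols.

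Replication-dependent histone mRNAs are made mainly in S phase from clustered genes without introns, and they end in a short stem-loop that binds the stem-loop binding protein SLBP rather than in a poly(A) tail. Some HIST genes can also give longer, polyadenylated transcripts that read past the stem-loop, as seen in differentiating cells. Variant histones such as H2A.Z and H3.3 are made throughout the cell cycle from ordinary polyadenylated mRNAs, and they replace the replication-dependent forms at particular places in chromatin.

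All 6 libraries came from MDA-MB-231-DR, the doxorubicin-resistant derivative of MDA-MB-231, a triple-negative human breast cancer line. The 3 control libraries were labelled only as MDA-MB-231-DR cells, and the 3 CYT libraries as the same cells treated with CYT. The culture methods kept the resistant line in a low concentration of doxorubicin, so both groups share that background; the dose and duration of CYT for these libraries are not given in the sources used here. MDA-MB-231-DR is a single line, and the labels do not say whether the replicates were separate cultures, so the p-values measure only the spread between these libraries. The labels name the extracted material as total RNA, and the methods say that mRNA was separated from it without naming poly(A) selection.

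Gene counts totalled 14050849 to 17770102 per control library and 13056270 to 14106017 per CYT library. The line markers VIM (2459 CPM, the count scaled to library size, in controls and 996 after CYT), CD44 (139 and 122), EGFR (163 and 25.9) and KRT18 (279 and 138) were read in both groups, although VIM and EGFR were lower after CYT by edgeR (log2 fold changes -1.30 and -2.65), whereas ESR1 and PGR were at or below 0.147 CPM in both groups; ERBB2 stood at 62.9 and 35.2 CPM. The 8 markers of blood, endothelial and liver cells were at most 1.76 CPM on average, and PTPRC, CD3E, LYZ, HBB and ALB had no count in any control library. CYT replicate 2 stood apart from the other libraries: its correlation with the other CYT libraries was 0.904 and 0.905 (log2 CPM over all genes tested), against 0.953 to 0.971 for the other replicate pairs. Its genes with over 60% GC deviated by a median of -1.07 (log2) from the mean of all 6 libraries, and those under 40% GC by 0.60. In the bulk RNA, a change in the share of cells in S phase and a change in histone mRNA per cell cannot be told apart.

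The 3′ ends of the annotated transcripts show what separates the HIST genes from the variants. The stem-loop core, 16 bases that start with GG, end with CC and hold T, T, T and A at fixed places in the loop region, was searched on the transcript strand within 100 bases after the stop codon of the GENCODE release 29 transcripts (GRCh38). It was found in 32 of the 36 HIST genes whose models run at least 30 bases past the stop codon (88.9%). Among the variants it was found in 1 of 17 (5.88%), H2AFX, and among the other coding genes in 31 of 18936 (0.164%). The other 35 HIST genes have models that end at the stop codon, which neither hold nor exclude the motif. The sequences below are 5 of the HIST genes that rose most or were read most after CYT and the single variant with the motif; capitals mark the matched 16 bases.
HIST2H2BE: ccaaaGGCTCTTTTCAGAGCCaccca
HIST1H2AC: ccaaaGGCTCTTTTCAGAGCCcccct
HIST1H3H: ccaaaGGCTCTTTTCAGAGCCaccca
HIST1H4H: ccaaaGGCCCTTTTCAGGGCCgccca
HIST2H4A: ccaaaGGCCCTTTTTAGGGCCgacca
H2AFX: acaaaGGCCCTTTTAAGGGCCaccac
HIST2H2BE, HIST1H2AC and HIST1H3H share the same 16 bases. In HIST2H2BE the motif starts 57 bases after the stop codon and 1729 annotated bases follow it, so a transcript of that model runs far beyond the stem-loop. HIST1H2AC has 1114 bases after its motif and H2AFX 1044.

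In all, 25 HIST genes have a model of at least 200 bases after the stop codon, called extended here, and 24 of these hold the stem-loop motif. The poly(A) signal AATAAA or its variant ATTAAA was present in the last 60 bases of an extended model in 19 of the 25. The extended models were spliced in part: HIST1H2AC and HIST1H4H each have a model of 2 exons.

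The promoters were read for the 75 members matched to RefSeq (GRCh38.p14, 250 bases before to 50 after the start; 62 HIST and 13 variant genes). TATAAA, searched on both strands as were the other motifs, was present in 66.1% of HIST promoters, 30.8% of variant promoters and 11.5% of 35116 RefSeq promoters. CCAAT was found in 83.9%, 84.6% and 34.6% of the same sets. It was held by every H1, H2A, H2B and H3 HIST promoter, and by 23.1% of the 13 H4 promoters. The octamer ATTTGCAT was found in 38.7% of HIST, 7.69% of variant and 1.77% of all promoters, and its HIST matches were confined to H2A (68.8%) and H2B (81.2%) among the 5 histone types. The promoters of HIST2H2BE (chr1:149886633-149886932, minus strand) and H2AFX (chr11:119095416-119095715, minus strand) are shown as the genes that rose and fell most, with matches to any of these motifs on either strand in capitals.
HIST2H2BE: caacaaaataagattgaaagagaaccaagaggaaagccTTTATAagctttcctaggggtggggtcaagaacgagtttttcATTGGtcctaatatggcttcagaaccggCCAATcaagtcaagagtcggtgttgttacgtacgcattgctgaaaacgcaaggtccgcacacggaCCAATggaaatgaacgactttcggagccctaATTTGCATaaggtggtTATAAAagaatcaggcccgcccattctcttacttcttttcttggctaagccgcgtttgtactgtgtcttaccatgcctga
H2AFX: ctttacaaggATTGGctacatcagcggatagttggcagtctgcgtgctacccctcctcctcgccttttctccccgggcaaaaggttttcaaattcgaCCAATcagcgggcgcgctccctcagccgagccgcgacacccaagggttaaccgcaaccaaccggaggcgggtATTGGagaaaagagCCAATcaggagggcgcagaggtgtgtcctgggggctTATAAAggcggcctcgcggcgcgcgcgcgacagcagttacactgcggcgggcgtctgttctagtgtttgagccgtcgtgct
HIST2H2BE holds all 3 motifs, and H2AFX holds TATAAA and CCAAT without the octamer.

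CYT was compared with control to ask which histone genes changed with treatment. Of the 71 HIST genes, 17 were higher after CYT and none was lower by the quasi-likelihood test of edgeR (adjusted p under 0.05, Benjamini-Hochberg over 15572 genes), while 18 did not pass and 36 had too few counts to be tested. Of the 20 variant genes, 1 was higher, 3 were lower, 6 did not pass and 10 could not be tested. Across all genes tested, 15.7% were higher and 12.9% were lower, 28.6% in either direction. At an unadjusted edgeR p under 0.05, 20 HIST genes were higher and 1 was lower. DESeq2 called 19 higher and 0 lower, against 18.8% and 15.1% of all genes. With the replicate number as a block, edgeR called 19 HIST genes higher and 0 lower, against 20.0% and 19.8% of all genes. The added genes were HIST1H2BD and HIST2H3C. The median log2 fold change was 1.90 over the 35 tested HIST genes and -0.08 over the 10 tested variants, against 0.0064 over all genes tested. The HIST median ranged from 0.93 with limma on log2(FPKM + 1), a scale that understates the change of low genes, to 2.93 over the 15 HIST genes with a mean CPM of 5 or more, and was 1.33 after the correction for GC content and length and 1.46 without control replicate 2. The sign of the variant median differed between settings, with 0.07 under upper-quartile normalization, whereas the median of all genes was then 0.16. All 17 HIST calls had an absolute log2 fold change over 1, a criterion met by 15.2% of all genes in that direction.

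The filter on low counts bears on these figures, because a gene can pass it through the group in which it is high. Of the 35 tested HIST genes, 25 reached the filter level in all 3 control libraries, and 14 of those were called higher. Another 6 reached it in all 3 CYT libraries but not in all 3 controls, and 3 of these, HIST1H2BC, HIST1H2BO and HIST1H3J, were called higher. Genes whose mean CPM lay in the range of the tested HIST genes (0.758 to 52.2) were higher in 17.4% and lower in 12.8% of 11260 cases. Of the 36 HIST genes not tested, 9 had no count in any library, 21 had at most 9 counts in any library, and 6 reached 10 or more: HIST1H2BB, HIST1H2BE, HIST1H4B, HIST2H2AB, HIST3H2A and HIST4H4. HIST4H4, the most counted of these, had 5, 3 and 4 counts in the control libraries and 17, 8 and 29 after CYT. In the fit without the filter, HIST4H4 (log2 fold change 2.34, edgeR adjusted p = 0.041) and HIST1H2BE (3.34, edgeR adjusted p = 0.029) were higher, and the other untested HIST genes with any count did not pass. Of the variants not tested, 6 had no count and H2AFY2, a macroH2A gene, had at most 20.

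**Figure D1:**
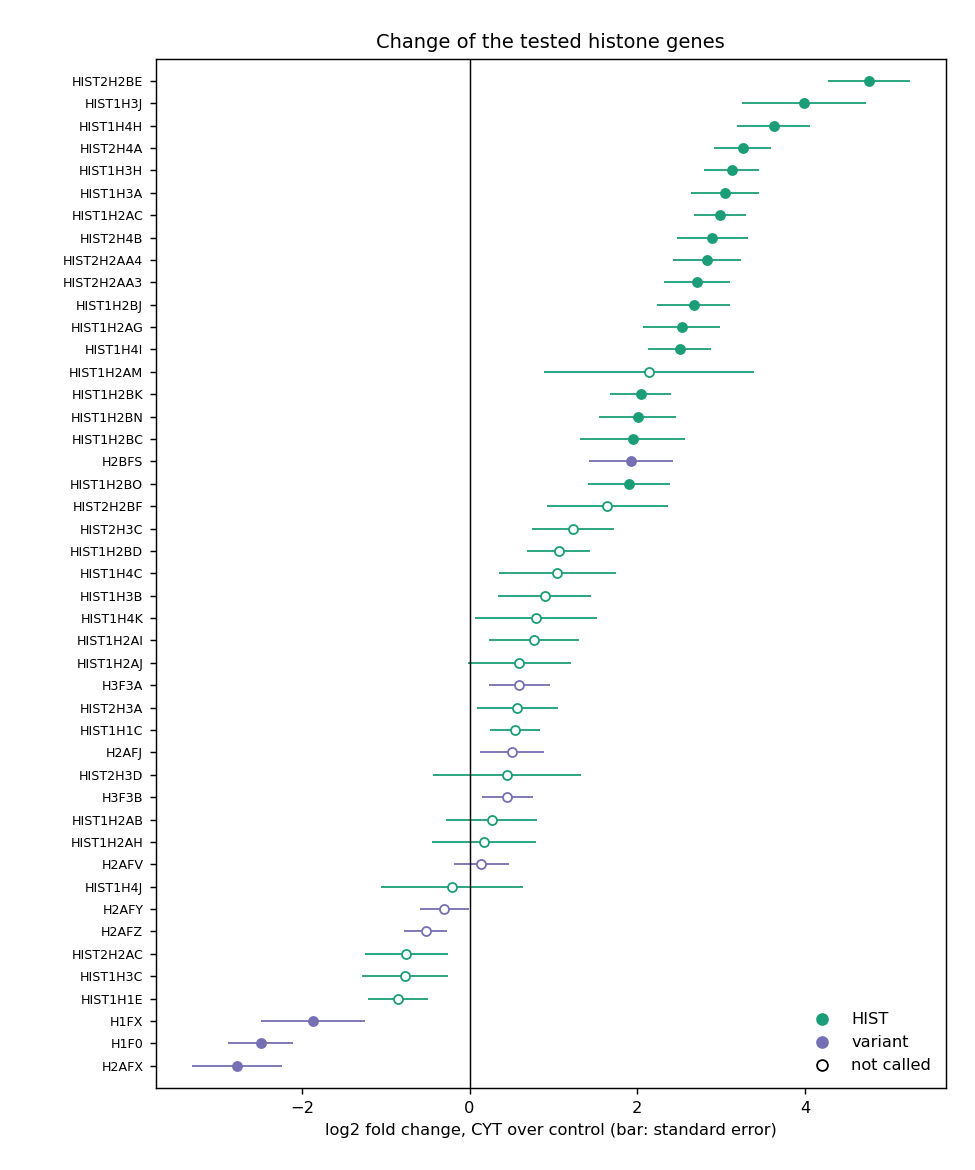
Log2 fold change of each of the 45 tested histone genes, CYT over control, with its standard error (edgeR, 3 libraries per group). Filled points passed the adjusted p threshold: 17 HIST genes on the right, from 1.90 for HIST1H2BO to 4.76 for HIST2H2BE, and 3 variants on the left, with the variant H2BFS among the HIST genes.

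HIST2H2BE, an H2B gene of the chromosome 1 cluster (ENSG00000184678, GRCh38 chr1:149884459-149886652, minus strand, all exon), rose most. It was read at 0.992, 1.22 and 3.16 CPM in the control libraries and at 47.3, 50.2 and 47.7 CPM after CYT. The groups lay far apart, and the 3 CYT libraries, replicate 2 included, differed little. The log2 fold change was 4.76 (SE 0.49, adjusted p = 0.00049 by edgeR's quasi-likelihood test), a 27.0-fold ratio of mean CPM.

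HIST1H2AC, an H2A gene of the chromosome 6 cluster (chr6:26124145-26139116, plus strand), had the most counts of the HIST genes after CYT. Its levels were 9.55, 10.6 and 11.3 CPM in controls and 86.0, 96.6 and 65.7 CPM after CYT. Every CYT library was above every control library, and the log2 fold change was 2.98 (SE 0.31, edgeR adjusted p = 0.00052). The exons of the row are longer together than either of its coding models, and part of the interval is intronic. HIST1H2BK, an H2B gene whose row covers the coding sequence alone (chr6:27146418-27146798), stood at 15.4, 7.88 and 18.2 CPM and then at 58.8, 52.8 and 59.0 CPM. It rose by 2.04 on the log2 scale (SE 0.36, edgeR adjusted p = 0.0035).

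The rises covered the core histones. Of the tested genes, 4 of 10 H2A, 6 of 8 H2B, 3 of 8 H3 and 4 of 7 H4 genes passed, and neither of the 2 H1 genes did. In the chromosome 6 cluster 12 of 25 tested genes passed, and in the chromosome 1 cluster 5 of 10. Of all genes tested 15.7% were higher, and of all tested HIST genes 17 of 35. Beside HIST2H2BE and HIST1H2BK, the H2B genes HIST1H2BJ (log2 fold change 2.67), HIST1H2BN (2.005), HIST1H2BC (1.94) and HIST1H2BO (1.90) passed. HIST1H2BC had 0.930, 0.160 and 0.719 CPM in controls and 2.33, 2.92 and 1.67 CPM after CYT, the weakest call (edgeR adjusted p = 0.043), and it was lost without any single library (log2 fold change 1.75, edgeR adjusted p = 0.070 without CYT replicate 2). HIST1H2BO lost its call without control replicate 1, 2 or 3 or CYT replicate 3 (edgeR adjusted p up to 0.082).

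Among the H3 and H4 genes, which form the central tetramer of the nucleosome, HIST1H3H had the smallest standard error of those called. It rose from 2.54, 3.30 and 3.31 CPM to 24.5, 26.3 and 29.2 CPM, with a log2 fold change of 3.13 (SE 0.33, edgeR adjusted p = 0.00052). HIST1H3A rose by 3.04, and the H4 genes HIST1H4H, HIST2H4A, HIST2H4B and HIST1H4I by 3.63, 3.26, 2.89 and 2.50 (log2). HIST1H4H went from 1.24, 0.905 and 1.01 CPM to 12.6, 18.4 and 8.18 CPM, so its groups did not overlap although the CYT libraries differed by over 2-fold. Among the H2A genes, HIST2H2AA3, HIST2H2AA4 and HIST1H2AG rose by 2.71, 2.83 and 2.53.

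**Figure D2:**
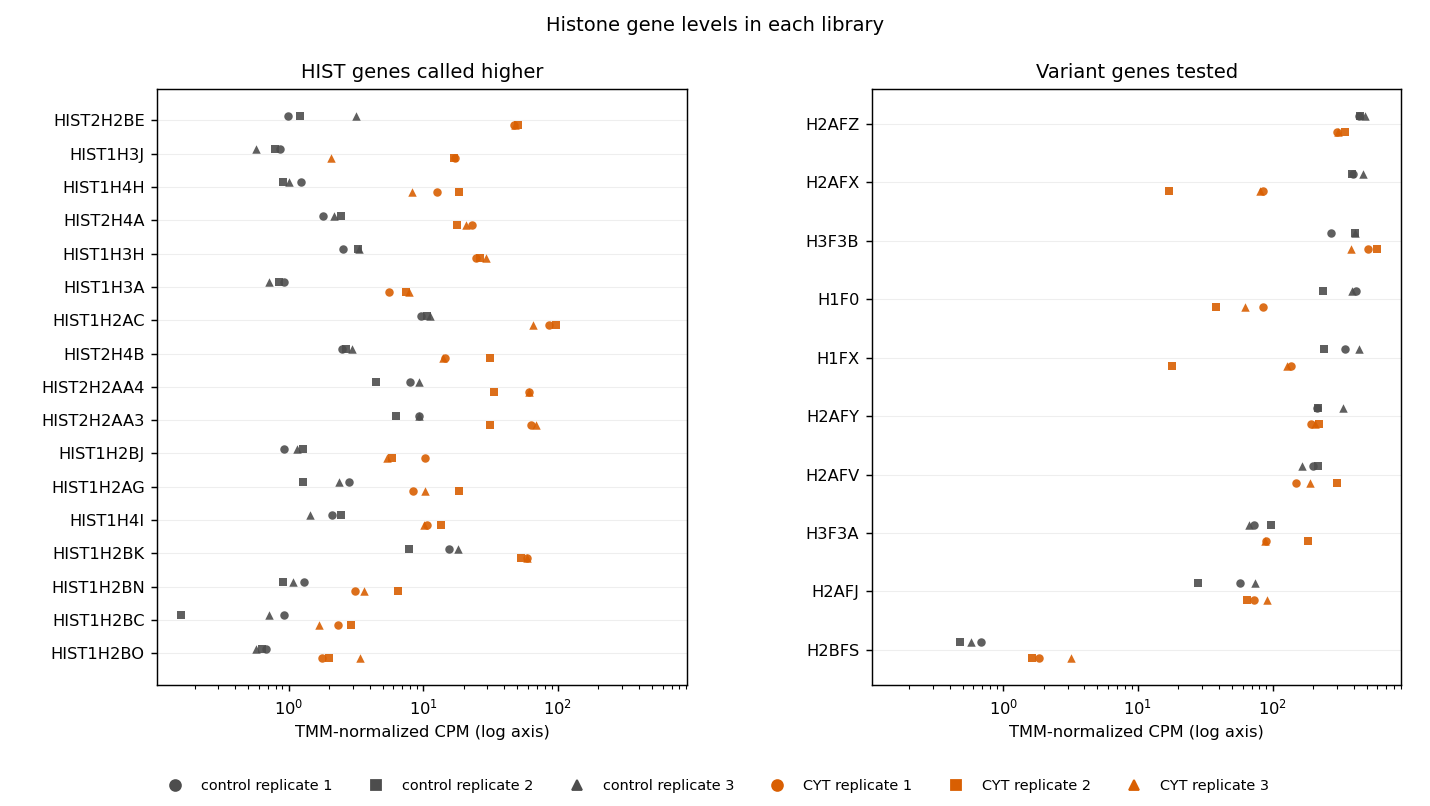
TMM-normalized CPM in each library (log axis) for the 17 HIST genes called higher (left) and the 10 tested variants (right); grey, control; orange, CYT; marker shape, replicate number. Every CYT library of HIST2H2BE lies at or above 47.3 CPM and every control library at or below 3.16 CPM, and for H2AFX, H1F0 and H1FX the lowest CYT value is that of replicate 2.

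Some HIST genes did not follow. HIST1H1C, a linker histone H1 gene with the most counts of the HIST genes in controls, had 52.1, 37.8 and 37.7 CPM before and 55.9, 55.4 and 74.6 CPM after CYT. These groups did not overlap, but the log2 fold change of 0.54 did not pass (SE 0.30, edgeR adjusted p = 0.20). The other tested H1 gene, HIST1H1E, was at 5.15, 5.48 and 5.46 CPM and then at 2.61, 2.70 and 3.58 CPM. It was the only tested HIST gene with every CYT library below every control library, a pattern shown by 22.7% of all genes tested. Its log2 fold change of -0.86 did not pass (SE 0.36, edgeR adjusted p = 0.10), although it passed with limma on the FPKM values and after a correction for GC content (-1.13, adjusted p = 0.036). The reverse pattern, every CYT library above every control, was seen in 20 tested HIST genes and in 23.4% of all genes tested.

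Many H2A and H2B genes lie head to head around a shared promoter region. There were 12 pairs of HIST genes with divergent starts under 1000 bases apart, and both genes of 6 pairs were tested. Both passed in 3 pairs, among them HIST1H2BC and HIST1H2AC (218 bases between the rows) and HIST1H2BJ and HIST1H2AG (291 bases). In the other 3 pairs only the H2B gene passed. One of these was HIST1H2AM with HIST1H2BO, and HIST1H2BO also faced the H3 gene HIST1H3J in a pair where both passed. HIST1H2AM overlaps HIST1H3J, and their merged rows were higher (log2 fold change 3.01, edgeR adjusted p = 0.00077). How reads were assigned between these rows is not given, so the value of HIST1H2AM alone is uncertain. HIST2H2BE, the largest rise, faces HIST2H2AC across 322 bases, and HIST2H2AC had 9.55, 5.22 and 5.32 CPM in controls and 3.81, 1.85 and 6.28 CPM after CYT. These values overlapped (log2 fold change -0.75, SE 0.49, edgeR adjusted p = 0.28), and the gene passed as lower only after the correction for GC content and length (-1.24, adjusted p = 0.013). The HIST2H2AC row ends at the stop codon, whereas that of HIST2H2BE includes 1801 bases after it. HIST1H2BK likewise passed when HIST1H2AH, 330 bases away, did not (log2 fold change 0.17, positive in 13 of 16 alternatives).

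Several rows share sequence or position. HIST1H3J and HIST1H2AM overlap on the same strand, and how the counting treated overlaps is not given in the sources used here. HIST1H3J had 14, 15 and 8 counts in controls and 244, 236 and 26 after CYT, and HIST1H2AM had 35, 20 and 24 and then 6, 5 and 267. CYT replicate 3 was thus low for HIST1H3J and high for HIST1H2AM. Their sum was 49, 35 and 32 in controls and 250, 241 and 293 after CYT, with no overlap between the groups and a log2 fold change of 3.01 (SE 0.35, edgeR adjusted p = 0.00077). HIST2H2AA3 and HIST2H2AA4 are duplicate copies, and their summed counts of 280, 202 and 259 became 1766, 907 and 1625 (log2 fold change 2.77). The duplicated HIST2H4A and HIST2H4B, which overlap HIST2H3C and HIST2H3A, gave a sum over all 4 rows that rose by 2.20. With overlapping and duplicated members merged, 15 HIST units were higher.

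Summed over all members, HIST counts were 152, 123 and 149 CPM, taken over all gene counts, in the control libraries and 570, 571 and 545 after CYT. The mean went from 141 ± 16.2 to 562 ± 14.7 (SD, n = 3), a 3.98-fold ratio, with no overlap and with CYT replicate 2 level with the others. The variant sum was 2241, 2416 and 2807 before and 1629, 1931 and 1444 after, that is 2488 ± 290 and 1668 ± 246. Within each library the HIST counts therefore amounted to 5.72% ± 0.94 of the variant counts in controls and 34.1% ± 4.16 after CYT. This ratio does not depend on library scaling. No test was made on these sums, since the members were chosen with earlier results known. On the deposited FPKM values the log2 ratio of the sums, CYT over control, was 1.64 for HIST and -1.23 for variant genes, against 1.99 and -0.58 on counts.

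By type, the summed HIST level went from 40.3 to 220 CPM for H2A, from 24.96 to 138 for H2B, from 16.4 to 64.9 for H3 and from 12.3 to 74.2 for H4, and stood at 47.2 and 65.3 for H1. HIST1H1C alone made up 30.01% of HIST counts in controls. After CYT its share was below that of HIST1H2AC, which held 14.9%. These are shares of reads and are not corrected for transcript length.

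**Figure D3:**
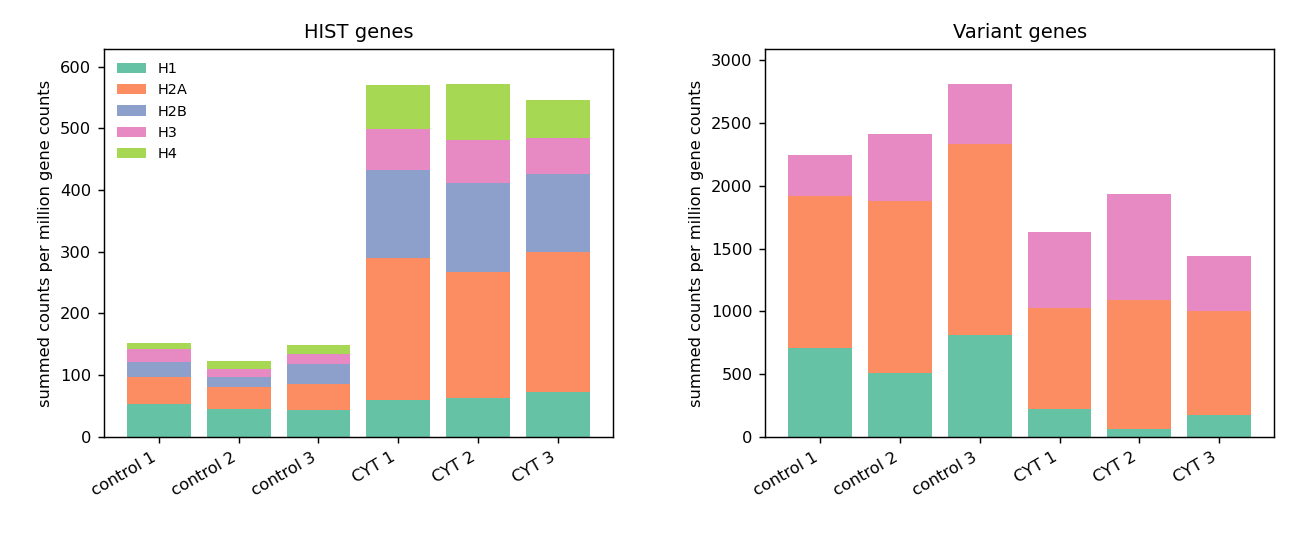
Summed CPM, taken over all gene counts, for HIST genes (left) and variant genes (right) in each of the 6 libraries, stacked by histone type. The HIST sum lies at 123 to 152 in controls and 545 to 571 after CYT, while the variant sum is 2241 to 2807 in controls and 1444 to 1931 after CYT; the axes differ in scale.

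Among the variants, H2AFX, which encodes the H2A.X histone phosphorylated at DNA breaks, fell most (ENSG00000188486, chr11:119093854-119095467, minus strand). It stood at 393, 387 and 473 CPM in controls and at 84.9, 17.2 and 81.1 CPM after CYT. All CYT libraries were well below the controls, and replicate 2 was the lowest by a wide margin. The log2 fold change was -2.77 (SE 0.54, edgeR adjusted p = 0.0050) and -2.34 without CYT replicate 2 (edgeR adjusted p = 0.00054). H2AFX is the variant that carries the stem-loop motif. Of the 18 tested HIST genes that carry it, 12 were higher, none was lower and 6 did not pass, beside 17 of all 35 tested HIST genes higher and 15.7% of all genes tested.

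H1F0, the linker histone H1.0 of slowly dividing and differentiated cells (chr22:37805093-37807436), went from 417, 236 and 387 CPM to 84.5, 38.2 and 62.1 CPM. The groups did not overlap and the log2 fold change was -2.49 (SE 0.39, edgeR adjusted p = 0.0020). H1FX, another linker histone variant (chr3:129314771-129316277), had 348, 243 and 436 CPM before and 137, 18.01 and 127 CPM after CYT. Its fold change of -1.86 (log2, SE 0.62) passed narrowly (edgeR adjusted p = 0.049). Without CYT replicate 2 it was -1.38 (edgeR adjusted p = 0.0079), but the call was lost when any other library was left out. The antisense gene H1FX-AS1 overlaps H1FX and had 17, 13 and 30 counts in controls and 62, 91 and 129 after CYT. Whether counting used strand is not given in the sources used here, so reads of this pair cannot be told apart with certainty.

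H2AFZ, the gene of the conserved variant H2A.Z.1, stood at 435, 449 and 487 CPM in controls and at 300.3, 345 and 307 CPM after CYT. Every CYT library lay below every control, but the log2 fold change of -0.52 did not pass (SE 0.25, edgeR adjusted p = 0.15). It passed after the correction for GC content and length (-0.85, edgeR adjusted p = 0.0041). H2AFY, which encodes macroH2A1, and H2AFV, which encodes H2A.Z.2, had fold changes of -0.30 and 0.14 (log2), and the sign for H2AFV was negative without CYT replicate 2 (-0.20).

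The H3.3 genes H3F3A and H3F3B encode the same protein, which is placed in chromatin both in and outside S phase. H3F3B had 273, 410.0 and 409 CPM before and 509, 601 and 382 CPM after CYT, with overlapping groups and a log2 fold change of 0.45 (SE 0.30, edgeR adjusted p = 0.29). H3F3A had a fold change of 0.59 (log2, SE 0.36, edgeR adjusted p = 0.25). Its processed pseudogenes H3F3AP4 and H3F3AP6, named here after their values were seen, share its sequence, and the counts over the 3 rows were 4290, 5040 and 3599 before and 5381, 10595 and 5153 after CYT. Reads may have been split between these rows, so the H3F3A value is uncertain. H2AFJ, an H2A variant, had a fold change of 0.51. H2BFS, the only tested variant called higher (1.92, SE 0.50, edgeR adjusted p = 0.019), had 11, 9 and 8 counts before and 26, 23 and 40 after, and its call was lost in 4 of 6 fits without a single library. It reached the filter level in all 3 CYT libraries and in none of the controls, so it entered the fit only through the group in which it was high, and none of the 9 variants at that level in all 3 controls was called higher. Reads could be split between its 2 rows, of which the other was too low to be tested.

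The HIST genes are given next by their annotated transcripts and base composition, with no test between these sets. Of 15 tested HIST genes with an extended model 11 were higher, with a median log2 fold change of 2.53. Of 6 with a shorter stretch after the stop codon 2 were higher, with a median of 0.91. Of 14 whose models hold coding sequence only 4 were higher, with a median of 0.69. One of the 4, HIST1H3J, has a counted row longer than its coding model and overlaps HIST1H2AM, and without it 3 of 13 were higher, with a median of 0.59. By GC content, 11 of 14 tested HIST genes under 50% GC were higher and 6 of 21 with 50% or more, whereas 15.7% of all genes tested were higher in either range. The tested genes with an extended model had a median GC content of 47.5% and those with coding sequence only 61.5%, so model length and GC content cannot be told apart here. Over all genes tested the median log2 fold change went from 0.12 under 40% GC to -0.25 over 60%. After correction for GC content and length, 17 HIST genes were higher and 2, HIST1H1E and HIST2H2AC, were lower, beside 3290 genes higher (21.2%) and 4036 lower (26.0%) of all 15542 genes in that fit. HIST2H2BE then stood at 4.50, HIST1H2BK at 1.82, H2AFX at -2.92 and H1F0 at -2.65 (log2).

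**Figure D4:**
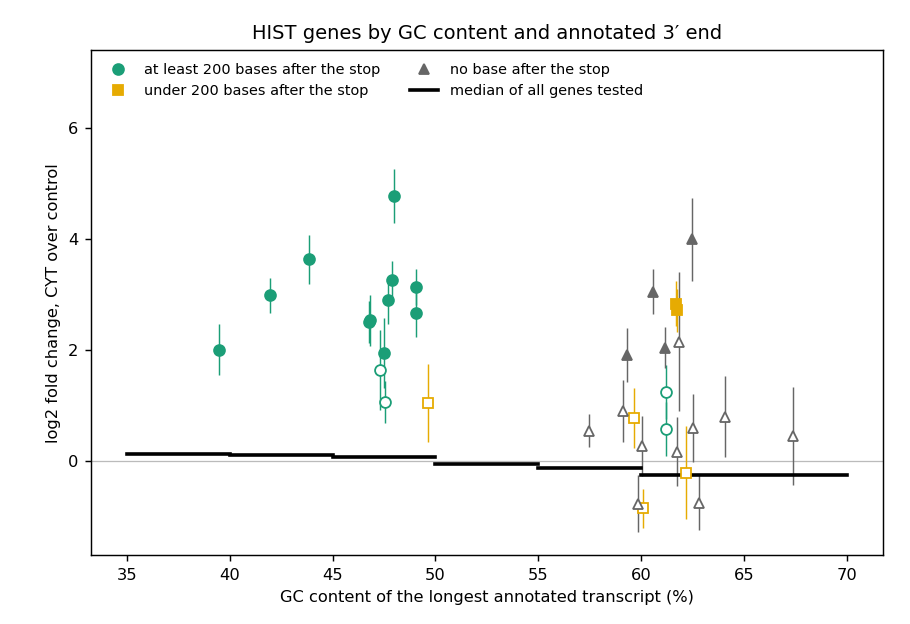
Log2 fold change of the 35 tested HIST genes against the GC content of the longest annotated transcript, with standard errors; colour and marker give the annotated length after the stop codon, filled points passed the test, and black lines give the median of all genes tested in each GC range. Genes below 50% GC lie at 1.05 to 4.76, while those of 50% or more spread from -0.86 to 3.99.

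A list of histone mRNA 3′ end processing factors together with histone locus and transcription factors had 27 genes tested. None was higher and 6 were lower by edgeR's quasi-likelihood test, with a median log2 fold change of -0.25. At an unadjusted edgeR p under 0.05, 1 was higher and 8 were lower, a threshold whose share over all genes is not given here. DESeq2 called 1 higher and 6 lower (3.70% and 22.2%), against 18.8% and 15.1% of all genes. By edgeR the lower share was 22.2%, against 12.9% of all genes tested, and it depended on the setting. Under upper-quartile normalization 2 of the 27 were lower (7.41%) and 1 was higher, against 10.4% lower and 18.5% higher over all genes. After the correction for GC content and length 10 were lower (37.04%, against 26.0%). With a mean of at least 5 CPM the lower share was 11.1%, against 12.2%. Without control replicate 1 or 3 or CYT replicate 1 or 3 it was 7.41%, against 7.41%, 7.36%, 8.48% and 7.63% of all genes. Without control replicate 2 it was 14.8%, against 10.2%, and without CYT replicate 2 25.9%, against 17.0%. The lower genes were LSM10, a subunit of the U7 small nuclear ribonucleoprotein (-2.14), CSTF2, a cleavage factor (-1.54), ZNF473, the U7-associated zinc finger protein (-1.16), GON4L (-1.03), COIL, the coilin of Cajal bodies (-0.95), and SNRPG, a core Sm protein (-0.80). LSM10 had 57.5 ± 15.6 CPM in controls and 13.03 ± 6.15 CPM after CYT (SD, n = 3, edgeR adjusted p = 0.0055). SLBP, which binds the stem-loop, stood at 70.6 ± 19.1 and 59.997 ± 16.6 CPM (log2 fold change -0.23, edgeR adjusted p = 0.64). NPAT, the activator of histone transcription at the histone locus body, had a fold change of -0.0060 (log2), whose sign changed between settings. CASP8AP2, another locus body protein, had 0.25, negative without CYT replicate 2, and LSM11, the partner of LSM10, had 0.31. COIL and SNRPG lost their call when any single library other than CYT replicate 2 was left out (edgeR adjusted p up to 0.15), as did ZNF473 and GON4L without control replicate 1 or 3 or CYT replicate 1 or 3 (up to 0.12).

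Of 34 histone chaperone and deposition genes, 4 were higher and 2 lower, 11.8% and 5.88%, against 15.7% and 12.9% of all genes tested. The count of lower genes changed with the setting: 4 with DESeq2 (11.8%, against 15.1% of all genes), 6 with the replicate block (17.6%, against 19.8%) and 11 after the correction for GC content and length (32.4%, against 26.0%). ASF1B, a chaperone of newly made H3 and H4 in S phase, rose by 2.12 (log2), from 151 ± 25.4 to 655 ± 172 CPM (SD, n = 3, edgeR adjusted p = 0.0017). UBN2 and SPTY2D1, both linked to H3 and H4 handling, rose by 1.52 and 1.38, and the elongation factor SUPT6H by 1.05. VPS72, which helps to place H2A.Z, fell by 2.68 on the log2 scale, and SSRP1, a subunit of the FACT complex, fell by 1.15. The median of the 34 genes was -0.21. Without CYT replicate 2, SPTY2D1 stood at 0.84, and it lost its call without control replicate 1 or 3 (edgeR adjusted p up to 0.11). SUPT6H lost its call without any single library other than CYT replicate 2 (edgeR adjusted p up to 0.13), UBN2 without control replicate 1 or 3 or CYT replicate 1 (up to 0.085), and SSRP1 without CYT replicate 1 (0.053).

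Replication-dependent histone mRNA normally follows S phase, so 45 S phase genes were read beside it: 9 were higher and 4 lower, with a median of 0.18. These shares were 20.0% and 8.89%, against 15.7% and 12.9% of all genes tested. After the correction for GC content and length 12 were higher and 12 lower (26.7% each, against 21.2% and 26.0%). Leaving out control replicate 1, 2 or 3 gave 11.1%, 8.89% and 6.67% higher, against 10.9%, 13.1% and 10.3% of all genes. Leaving out CYT replicate 1, 2 or 3 gave 13.3%, 24.4% and 11.1%, against 12.3%, 18.6% and 12.2%. GINS4 and GINS3, of the replicative helicase, rose by 2.70 and 1.69, and CCNE2, a cyclin of S phase entry, by 1.94. CCNA2, the S phase cyclin A2, fell by 1.71 on the log2 scale, and PRIM2, GINS1 and MCM3, of the primase and the helicase, fell by 1.13, 1.11 and 1.104. Without CYT replicate 2, CCNE2 stood at 1.17 and did not pass (edgeR adjusted p = 0.077), and its call was also lost without any other single library except CYT replicate 1 (up to 0.12). GINS1 and PRIM2 were each lost in 4 of the 6 fits without a single library, those without control replicate 3, CYT replicate 1 or CYT replicate 3 and, for GINS1, control replicate 2 or, for PRIM2, control replicate 1 (edgeR adjusted p up to 0.085), and MCM3 without CYT replicate 3 (0.059). The part of these genes in the HIST values was not tested.

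A list of RNAs without a long poly(A) tail, other than histone mRNA, was read beside the HIST genes. It includes the mitochondrial ribosomal RNAs and is called RNAs without a poly(A) tail here, a name that does not exclude short tails. Of 9 tested, 4 were higher and 1 was lower (44.4% and 11.1%, against 15.7% and 12.9% of all genes tested): MT-RNR2 and MT-RNR1, the mitochondrial ribosomal RNAs (3.40 and 2.30), RN7SK (2.25) and MALAT1, whose end is a triple helix (1.38), against RPPH1 (-3.56). MT-RNR1 and MALAT1 lost their call without control replicate 1 or CYT replicate 1 (edgeR adjusted p up to 0.068), and RPPH1 without control or CYT replicate 3 (up to 0.077). MT-RNR2 went from 1439 ± 216 to 15211 ± 1426 CPM. The summed level without the mitochondrial RNAs was 45.1 ± 8.13 CPM in controls and 69.6 ± 15.5 after CYT (SD, n = 3), a 1.54-fold ratio beside the 3.98-fold ratio of the HIST sum. Whether the share of RNAs without a poly(A) tail had a part in the HIST values was not tested.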

How the data were processed

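The authors extracted total RNA from 3 control and 3 CYT-treated MDA-MB-231-DR samples, separated mRNA, sequenced it on an Illumina NovaSeq, and removed low-quality, adapter and ribosomal reads. They aligned reads with Hisat2 (hg38 per the submitters' processing notes, which also name FastQC 0.12.1). The deposited counts are raw reads per gene; the counting program and its use of strand and of multiply aligned reads are not given in the sources used here. The deposited FPKM values were made by the authors with Stringtie, per the methods.

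Members were chosen by the symbol rule. The members and gene lists were chosen with earlier results of these data known. Named genes were every tested variant, every called HIST gene, the 10 tested HIST genes with the largest mean CPM, called genes of each list (the 4 largest in each direction where over 8 were called), and SLBP, NPAT, CASP8AP2 and LSM11; others were named after their values were seen. A gene that this rule names is not reported here. Counts were tested in R 4.3.3 with edgeR 4.0.16 (TMM, filterByExpr with a minimum count of 10, quasi-likelihood test, Benjamini-Hochberg over 15572 genes, called at an adjusted p under 0.05), without covariates. CPM per gene uses TMM-scaled library sizes, and summed CPM all gene counts. The biological coefficient of variation was 37.5%. GC content and transcript models came from GENCODE release 29 and promoters from RefSeq. The fit was tested on simulated data with known changes.

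Correlations of deviations from the group means were 0.19, 0.46 and 0.12 for same-numbered libraries. Control 1 with CYT 3 gave 0.30 and control 3 with CYT 1 gave 0.20, both higher than the same-numbered values of those libraries. The labels state no pairing, and these values do not establish one. The fit with the replicate number as a block was therefore only an alternative. The others were DESeq2 1.42.0, upper-quartile normalization, other filters, protein-coding genes only, limma 3.58.1 on log2(FPKM + 1) and log2(FPKM + 0.1), and leaving out each library. Corrections for GC content and length (with and without the block) and merged overlapping members were added after seeing the data. Depth was 13056270 to 17770102 counts per library; intervals were not derived from counting error.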

Additional observations from a re-analysis of the deposited data

Results flagged for a closer look

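The count table also holds 20 rows with HIST symbols that are not protein-coding, mostly pseudogenes, which enter none of the comparisons above. Their summed level was 1.43 ± 0.14 CPM in controls and 10.4 ± 3.72 CPM after CYT (SD, n = 3), above the control level in every CYT library: 25, 23 and 22 counts against 129, 191 and 101. They were singled out because these data lie outside the main measurement and stood above the controls. Most of the counts after CYT came from a transcribed pseudogene row of HIST2H2BC, named after its values were seen, with 5, 3 and 3 counts before and 76, 122 and 51 after. Reads may be shared between such copies and their coding relatives, and this was not tested.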

How the results depend on the processing

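Of 953 values of named genes recomputed under the alternatives, 844 kept their direction and side of the threshold, 96 kept the direction but lost the call, 2 gained a call and 11 reversed. Of the 17 HIST genes called higher, 15 were called under every alternative that tested them, as were H2AFX and H1F0. HIST1H2BC was lost without any single library, without the filter and after both corrections for GC content. HIST1H2BO and H2BFS were each lost without control replicate 1, 2 or 3, without CYT replicate 3, and in the corrected fit with the block. H1FX was lost in 9 settings. The fit with the replicate number as a block called 19 HIST genes higher and 0 lower, against 20.0% and 19.8% of all genes. It added HIST1H2BD (1.12, edgeR adjusted p = 0.027) and HIST2H3C (1.31, edgeR adjusted p = 0.026). With the block, 3089 genes were lower in all and 6 chaperone genes were lower; no other call on the members changed.

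Reversed values were log2 fold changes near 0. NPAT was 0.022 with DESeq2, 0.14 with upper-quartile scaling, 0.093 where genes needed a mean of 5 CPM or more, 0.063 among protein-coding genes, 0.0036 with limma on log2(FPKM + 1), and -0.24 to 0.27 when libraries were left out in turn. In the same fits CASP8AP2 ranged from -0.037 (without CYT replicate 2) to 0.54 and H2AFV from -0.20 (without CYT replicate 2) to 0.33. H2AFV was -0.0019 after GC and length correction and -0.0085 after that correction with the block.

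Counts of calls moved by more than 1.5 times as follows, where processing genes include the histone locus factors. DESeq2 gave 1 processing gene higher and 4 chaperone genes lower. Upper-quartile scaling gave 1 processing gene higher and 2 lower. Where genes needed a mean of 5 CPM or more, 1464 genes were higher in all, with 0 variants higher, 3 processing genes lower and 0 RNAs without a poly(A) tail lower. Among protein-coding genes alone, 0 RNAs without a poly(A) tail were higher and 0 lower, since none of them remains in the fit. Limma called 1 HIST gene lower with either pseudocount, and 3 processing genes lower with pseudocount 0.1. GC and length correction gave 4036 genes lower in all, 2 HIST genes lower, 1 processing gene higher and 10 lower, 11 chaperone and 12 S phase genes lower, and 3 RNAs without a poly(A) tail lower. With the block added to that correction, the same counts were 3974, 2, 1, 10, 10, 11 and 2, and 0 variants were higher. Summed levels moved by more than the spread between replicates in these settings: on FPKM the sum was 1.64 for HIST and -1.23 for variants (log2 of CYT over control). Without the most counted member of each class it was 2.33 and -0.87, and the log2 change of their ratio was 3.21. The cause of these shifts was not tested.

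Leaving out each library in turn gave 1683 to 3002 genes higher and 1208 to 2750 lower in all. For HIST genes it gave 15 to 21 higher and 0 lower, and for variants 0 to 1 higher and 2 to 3 lower. Processing genes had 2 to 7 lower, chaperones 1 to 4 higher and 1 to 3 lower, S phase genes 3 to 11 higher and 1 to 6 lower, and RNAs without a poly(A) tail 2 to 4 higher and 0 to 3 lower.

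Of the 36 HIST genes left out by the filter, 27 entered the fit without it and 2, HIST1H2BE and HIST4H4, were higher there; 9 had no count. Rows that end at the stop codon miss reads beyond it.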
